A study of Mus musculus with 1376 samples.

Results

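Semaphorins, Slits and their receptors were first described as cues that steer growing axons, and the same proteins guide vessels, airways and mesenchymal cells. The 10 genes described here form a list of names, drawn up with earlier results of these data known, so their counts are a description of the list and no test of it. They are the semaphorin genes Sema3a, Sema3c, Sema3d and Sema5a, the Slit genes Slit2 and Slit3, the Slit receptor gene Robo1, the neuropilin genes Nrp1 and Nrp2, and the plexin gene Plxnd1. All 10 were found by symbol among the 46517 genes of the lung count table. All 10 also passed the filter on low counts.

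Semaphorins of class 3 are secreted proteins. Most of them bind a neuropilin, which has no signalling domain of its own and pairs with a plexin, the receptor that passes the signal to the cytoskeleton. Neuropilins also bind growth factors of the VEGF family, so they are well known in endothelial cells. Sema5a is anchored in the membrane and carries thrombospondin repeats. Slits are large secreted proteins that bind Robo receptors together with heparan sulfate, and in many tissues they repel migrating cells.

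Lungs of 3 mice were dissociated and 1376 single cells were read, each deposited as its own sample, by Smart-Seq2, a full-length method for cells sorted into the wells of a plate. All mice carried ACTA2GFP:CSPG4dsRED, by its name a pair of fluorescent reporters for smooth muscle actin and for the proteoglycan NG2, so no mouse without the reporters was compared. The cells of male mouse 1 filled 2 plates, and male mouse 2 and female mouse 1 had a plate each, and the design therefore does not separate the mouse from its plate or its sex. The labels give an age of 8 to 30 weeks, whereas the series description gives a lower upper age and speaks of males. The tissue label says lung, whereas the extraction text speaks of heart and of a skeletal muscle kit, and no source used here gives the sort gate.

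Cells were grouped by clustering that used none of the guidance genes, and groups were named after lists of marker genes, with "-like" added. A total of 6 classes had at least 10 cells in every mouse. They were the airway smooth muscle cell (SMC)-like class (42 cells from male mouse 1, 13 from male mouse 2 and 29 from female mouse 1), the alveolar myofibroblast-like class (27, 41 and 35 cells in the same order), the alveolar fibroblast-like class (47, 63 and 34), the adventitial fibroblast-like class (28, 16 and 42), the pericyte-like class (24, 12 and 83) and the vascular SMC-like class (190, 85 and 26). A further 66 endothelial-like cells came almost all from female mouse 1, and 61 macrophage-like cells came from the males, so neither group could be compared over mice. All other cells stayed unnamed. Cells held 50835 to 1074103 counts. Summed per class and mouse, the 18 sums of the 6 classes held 2413919 to 55886637 counts. Levels are given as CPM, the share of a gene in all counts of a sum on the usual counts-per-million scale, with the mice always in the order male mouse 1, male mouse 2, female mouse 1.

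Endothelial markers, 7 genes in all, summed to 7.44 to 150.7 CPM in the 18 sums, against 12900 CPM in the endothelial-like cells of female mouse 1. The 7 macrophage markers summed to 7.30 to 106.5 CPM in the same sums, against 13720 to 16450 CPM in the macrophage-like cells. The airway SMC-like and alveolar myofibroblast-like classes shared markers: the airway SMC list summed to 4115 to 5630 CPM in the airway SMC-like class and to 5853 to 7136 CPM in the alveolar myofibroblast-like class. The pericyte-like and vascular SMC-like classes also shared markers: the vascular SMC list summed to 3223 to 6155 CPM in the pericyte-like class and to 4271 to 6648 CPM in the vascular SMC-like class, while the pericyte list summed to 5364 to 8444 CPM in the pericyte-like class and to 1234 to 1476 CPM in the vascular SMC-like class. The fibroblast-like classes shared markers too: the alveolar fibroblast list summed to 2255 to 4029 CPM in the adventitial fibroblast-like class and to 4343 to 6267 CPM in the alveolar fibroblast-like class. The adventitial fibroblast list summed to 2531 to 5181 CPM in the adventitial fibroblast-like class and to 1400 to 1568 CPM in the alveolar fibroblast-like class. The 6 cardiomyocyte markers summed to 65.9 to 803.5 CPM in the airway SMC-like class, with male mouse 2 the highest, against 34.02 to 88.2 CPM in the vascular SMC-like class and at most 61.4 CPM in the other classes. The 4 markers of dividing cells summed to 669.5 CPM in the 12 pericyte-like cells of male mouse 2 and to less than 1 CPM in those of the other mice. In clustering on another set of genes, 830 of the 879 cells named in both received the same name, and over all 1376 cells, unnamed ones included, the adjusted Rand index of the clusterings was 0.623.

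Promoters are shown for Sema3a and Sema3c, ligand genes that were high in the same classes, and for Robo1, the receptor gene almost silent in the vascular SMC-like class. Each window is 300 bases around 1 RefSeq start site of the gene, on the plus strand of GRCm38.p6. The Sema3a window is chr5:13396534-13396833, the Sema3c window chr5:17574566-17574865 and the Robo1 window chr16:72662899-72663198. The annotated genes begin at 13125414 for Sema3a, 17574281 for Sema3c and 72308306 for Robo1. The Sema3a and Robo1 windows thus lie far inside their genes, and other start sites of these genes were not examined. Capitals mark E boxes, the letters CANNTG that basic helix-loop-helix factors bind and that read the same on both strands, and in Robo1 also a match to the CArG box, the site of serum response factor.
Sema3a: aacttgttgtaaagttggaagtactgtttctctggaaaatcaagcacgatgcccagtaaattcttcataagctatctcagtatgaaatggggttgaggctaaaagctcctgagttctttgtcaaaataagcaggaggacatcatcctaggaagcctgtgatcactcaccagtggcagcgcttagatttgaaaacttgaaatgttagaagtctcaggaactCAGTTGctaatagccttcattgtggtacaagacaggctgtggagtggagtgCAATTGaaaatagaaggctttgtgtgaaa
Sema3c: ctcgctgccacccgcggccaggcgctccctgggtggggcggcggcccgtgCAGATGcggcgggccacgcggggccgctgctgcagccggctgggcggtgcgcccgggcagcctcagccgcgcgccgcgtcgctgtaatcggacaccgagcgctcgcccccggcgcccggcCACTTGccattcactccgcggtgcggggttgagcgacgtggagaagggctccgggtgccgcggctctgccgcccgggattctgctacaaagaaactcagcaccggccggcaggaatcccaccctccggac
Robo1: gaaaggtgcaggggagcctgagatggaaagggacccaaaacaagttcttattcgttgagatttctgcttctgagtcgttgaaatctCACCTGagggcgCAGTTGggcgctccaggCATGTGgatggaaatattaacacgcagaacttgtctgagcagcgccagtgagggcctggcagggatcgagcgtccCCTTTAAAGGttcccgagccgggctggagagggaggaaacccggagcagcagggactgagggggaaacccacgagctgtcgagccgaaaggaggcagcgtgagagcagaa
The Sema3a window was 41.3% G and C with 2 CpG pairs, and the Sema3c window was 75.7% G and C with 42 CpG pairs. E boxes occur in 72.3% of the 32851 promoter windows of the same length, so their presence in all 3 windows is ordinary. A CArG box occurs in 1.63% of the windows. The motifs TGGGAA (bound by RBPJ) and GGAATG (bound by TEAD factors), searched on both strands, occur in 25.6% and 14.7% of the windows and in none of these 3. The windows of Slit2 and Slit3 held none of the 4 motifs.

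Slit2 on chromosome 5 and Slit3 on chromosome 11 each contain a microRNA gene on the same strand, Mir218-1 in Slit2 and Mir218-2 in Slit3. They are shown because both hosts give the same mature miR-218-5p while their highest mean levels fell in different classes. Among the 6 compared classes Slit2 was highest in the alveolar fibroblast-like class and Slit3 in the vascular SMC-like class. Alveolar fibroblast-like cells nevertheless held both hosts, at means of 275.7 CPM for Slit2 and 203.1 CPM for Slit3. The seed, bases 2 to 8, is in capitals.
mmu-miR-218-5p from Mir218-1 in Slit2: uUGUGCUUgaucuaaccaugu
mmu-miR-218-5p from Mir218-2 in Slit3: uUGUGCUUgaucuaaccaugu
The sites are chr5:48223966-48223986 and chr11:35616840-35616860, both on the plus strand of GRCm38.p6, and the sequences are RefSeq's. The mature microRNA was not measured by this method.

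Among the 6 compared classes, Sema3a and Sema3c were at their highest in the airway SMC-like and alveolar myofibroblast-like classes, Slit2 and Nrp2 in the alveolar fibroblast-like class, and Sema5a and Slit3 in the vascular SMC-like class. Nrp1 was at least 121.8 CPM in every mouse of these classes, and Plxnd1 at least 26.8 CPM. A test for any difference across the 6 classes, edgeR's quasi-likelihood F test with the mouse as a block and Benjamini-Hochberg adjustment over all 15935 genes tested, called 7 of the 10 genes, against 12.1% of all genes. The 7 were Slit2 (adjusted p = 8.67e-07), Sema3c (0.00204), Sema3a (0.0021), Sema5a (0.00627), Slit3 (0.0073), Nrp1 (0.00881) and Nrp2 (0.0164). Robo1 (0.0709), Sema3d (0.103) and Plxnd1 (0.113) did not pass the threshold of 0.05. With male mouse 1 left out the same test called 4 of the 10, against 3.79% of all genes, with male mouse 2 left out 4, against 5.41%, and with female mouse 1 left out 1, against 4.64%.

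**Figure D1:**
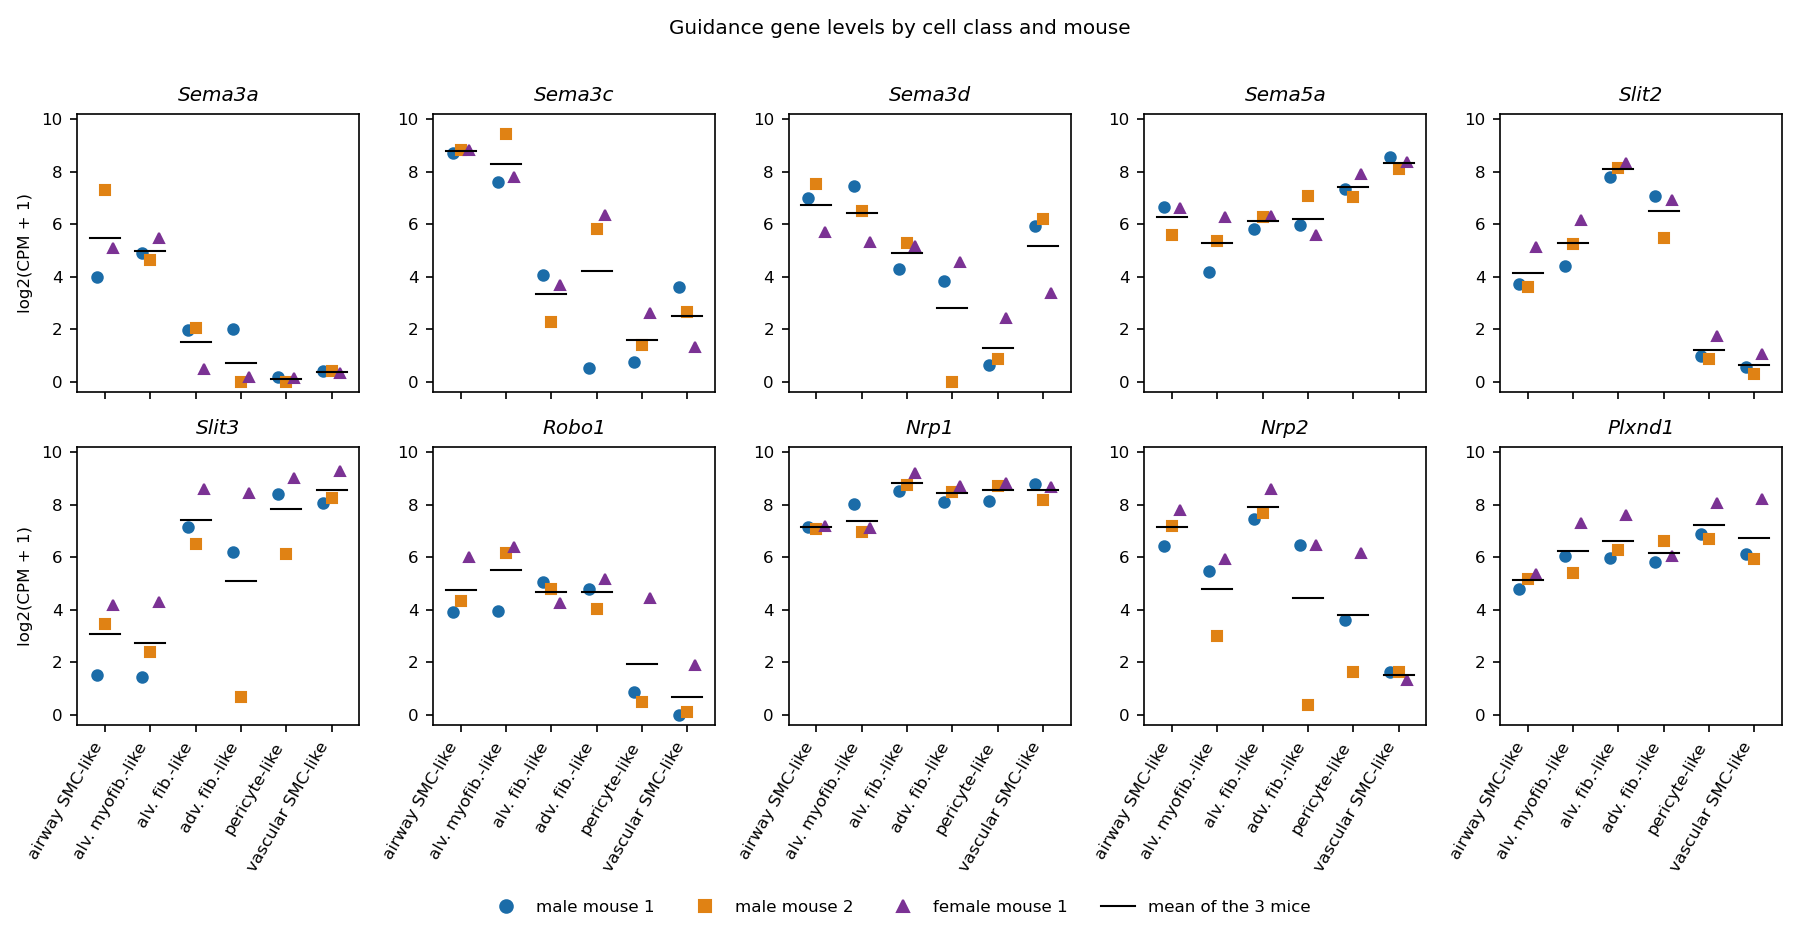
Levels of the 10 guidance genes, as log2(CPM + 1), in the 6 classes compared; each point is the sum of the cells of 1 mouse and the line is the mean of the 3 mice. Sema3a and Sema3c sit highest in the 2 classes on the left, Slit2 peaks in the alveolar fibroblast-like class, and Slit3 and Sema5a peak in the vascular SMC-like class on the right.

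Airway SMC-like cells were higher in the ligand genes Sema3a, Sema3c and Slit2 and in Nrp2, and lower in Slit3 and Nrp1, than vascular SMC-like cells. Of the 10 genes, 6 passed the test between these classes (4 higher and 2 lower in the airway SMC-like class), against 1.84% of all genes (1.02% higher and 0.822% lower). The median log2 fold change of the 10 was 3.12, against -0.15 over all genes tested. In 9 of the 10 the CPM of the mice did not overlap between the classes, against 16.3% of all genes.

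Sema3c, a secreted ligand known for its part in outflow tract and vascular development, had 414.2, 456.7 and 447.7 CPM in airway SMC-like cells, against 11.1, 5.28 and 1.49 CPM in vascular SMC-like cells. Every airway SMC-like value was far above every vascular SMC-like value. The log2 fold change was 6.05 (SE 1.35, edgeR adjusted p = 0.0322). Sema3a, the classical growth-cone repellent, had 14.99, 155.4 and 33.1 CPM in airway SMC-like cells, against 0.322, 0.325 and 0.271 CPM in vascular SMC-like cells. The airway SMC-like mice differed widely among themselves, with male mouse 2 the highest, yet all lay above the vascular SMC-like mice. The cardiomyocyte markers were also highest in that sum, where Myl7, Nppa and Tnni3 had no count, and their part in the result was not tested. The log2 fold change was 7.70 (SE 1.65, adjusted p = 0.0262).

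Nrp2, the neuropilin best known from lymphatic vessels and as a receptor of Sema3c and Sema3f, had 84.9, 145.8 and 218.5 CPM in airway SMC-like cells, against 2.06, 2.11 and 1.49 CPM in vascular SMC-like cells. No value of either class came near the other. The log2 fold change was 6.13 (SE 1.33, edgeR adjusted p = 0.028). Nrp1, the sister receptor preferred by Sema3a, ran the other way at 141.4, 134.7 and 143.6 CPM in airway SMC-like cells, against 433.3, 290 and 410 CPM in vascular SMC-like cells. The airway SMC-like mice were nearly equal and all lower. The log2 fold change was -1.44 (SE 0.32, adjusted p = 0.0331).

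Slit3 and Slit2 moved in opposite directions. Slit3 had 1.86, 10.02 and 17.2 CPM in airway SMC-like cells, against 267.9, 304.7 and 620 CPM in vascular SMC-like cells, a log2 fold change of -5.57 (SE 1.19, edgeR adjusted p = 0.0264). Slit2 had 12.2, 11.1 and 34.3 CPM in airway SMC-like cells, against 0.501, 0.244 and 1.08 CPM in vascular SMC-like cells, a log2 fold change of 4.93 (SE 0.58, adjusted p = 0.000357). In both cases the classes did not overlap.

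The remaining 4 genes did not pass the test. Sema5a had 100, 47.5 and 96.9 CPM in airway SMC-like cells, against 371.5, 277.5 and 332.6 CPM in vascular SMC-like cells (a log2 fold change of -2.02, SE 0.52, edgeR adjusted p = 0.066). Robo1 had 13.9, 18.9 and 63.7 CPM in airway SMC-like cells, against 0, 0.0812 and 2.71 CPM in vascular SMC-like cells (6.17, SE 1.61, adjusted p = 0.0734). Both were without overlap, as was Plxnd1 at -1.73 (SE 0.50, adjusted p = 0.113), while Sema3d overlapped (1.32, SE 1.19, adjusted p = 0.852). Of the 6 calls, Slit2 kept its call whichever mouse was left out. Without male mouse 1 Sema3a, Slit3, Nrp1 and Nrp2 lost theirs (adjusted p 0.124 to 0.307), without male mouse 2 Sema3a, Sema3c and Nrp1 (0.23 to 0.326), and without female mouse 1 all but Slit2 (0.275 to 0.452), with no change of direction. The Nrp1 call was also lost with clustering on all variable genes outside the guidance lists (adjusted p = 0.167), without the mouse block (0.0649) and when the fit held no other class (0.0555), the Sema3c call with all variable genes (0.0696), the Slit3 call without the block (0.0942) and the Slit2 call when the fit held no other class (0.197). With all variable genes the vascular SMC-like class also held a cluster with leading genes of unnamed cluster 2, described below. The part of that cluster in the lost calls was not tested. Within male mouse 1 the plates differed in Slit2: the difference in log2(CPM + 1) was -0.22 on plate 045s and 3.95 on plate 046s, with 20 and 22 airway SMC-like cells.

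**Figure D2:**
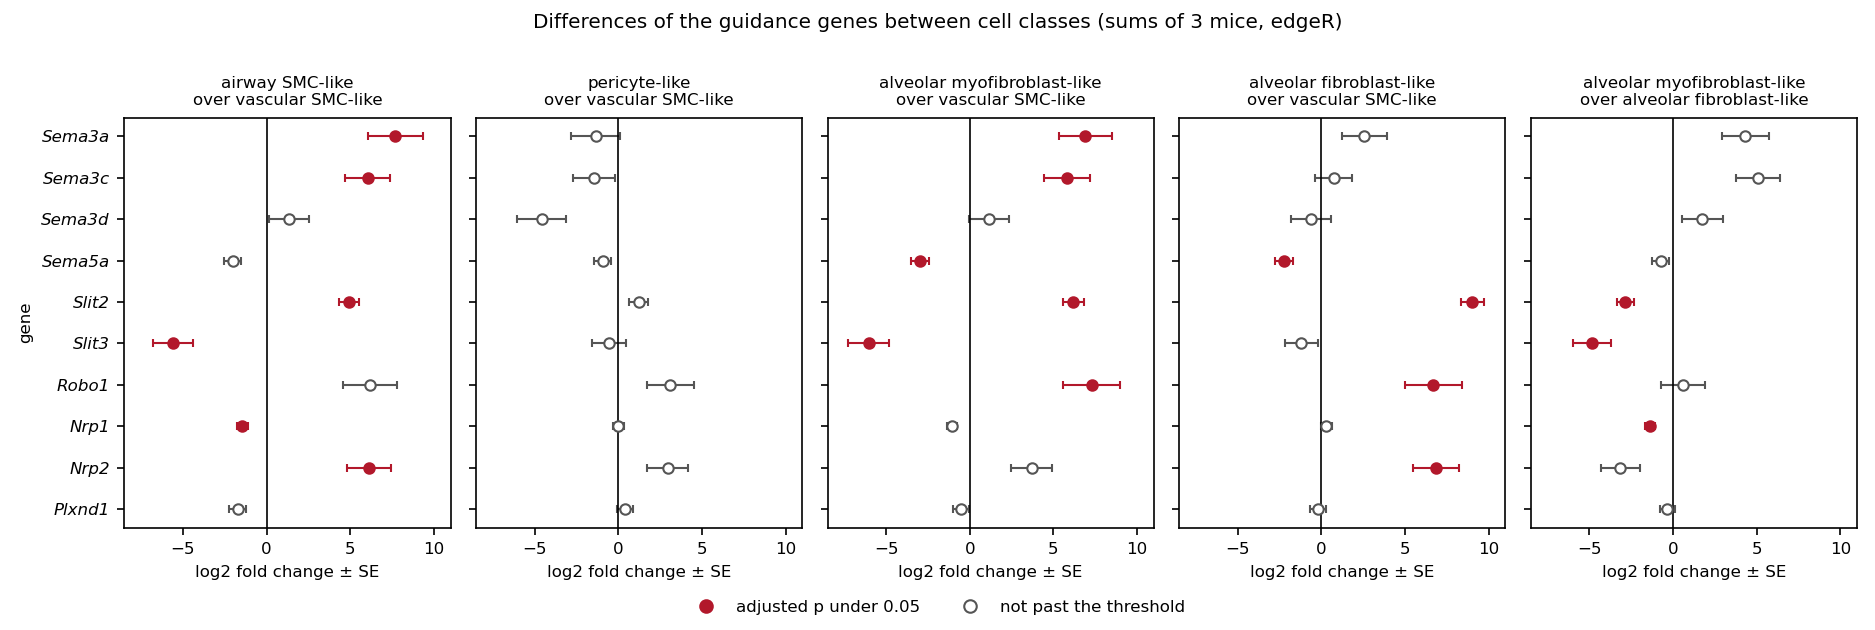
Log2 fold changes (x axis) of the 10 genes in the 5 comparisons, with their standard errors as bars; filled points passed edgeR's test at an adjusted p under 0.05. Filled points stand on both sides of 0 in the airway SMC-like, alveolar myofibroblast-like and alveolar fibroblast-like comparisons with vascular SMC-like cells, and the pericyte-like comparison has none.

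Alveolar myofibroblast-like cells were higher in Sema3a, Sema3c, Slit2 and Robo1, and lower in Slit3 and Sema5a, than vascular SMC-like cells. Of the 10, 6 passed the test against vascular SMC-like cells (4 higher and 2 lower), against 3.66% of all genes (2.03% higher and 1.63% lower). The median log2 fold change of the 10 was 2.43, against -0.09 over all genes. The CPM of the mice did not overlap in 8 of the 10, against 19.5% of all genes. All comparisons with vascular SMC-like cells use the same vascular SMC-like sums.

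Sema3c had 196.04, 691 and 224.5 CPM in alveolar myofibroblast-like cells, against 11.1, 5.28 and 1.49 CPM in vascular SMC-like cells, with the highest value in male mouse 2. Its log2 fold change was 5.82 (SE 1.35, edgeR adjusted p = 0.0258). Sema3a had 28.7, 23.7 and 43.4 CPM in alveolar myofibroblast-like cells, against at most 0.325 CPM in vascular SMC-like cells, a log2 fold change of 6.90 (SE 1.59, adjusted p = 0.0242). The mice were closer together than in the airway SMC-like class. On plate 045s of male mouse 1, however, Sema3a differed by 0.08 in log2(CPM + 1) between the classes, against 5.49 on plate 046s, with 13 and 14 alveolar myofibroblast-like cells.

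Robo1, the receptor of the Slits, had 14.6, 70.2 and 82.4 CPM in alveolar myofibroblast-like cells, against 0, 0.0812 and 2.71 CPM in vascular SMC-like cells. The vascular SMC-like sum of male mouse 1 held no Robo1 count among 55886637 counts, and the other vascular SMC-like sums held 1 and 20 counts. The log2 fold change was 7.30 (SE 1.70, edgeR adjusted p = 0.026). Slit2 had 20.1, 36.97 and 70.995 CPM in alveolar myofibroblast-like cells, against at most 1.08 CPM in vascular SMC-like cells (a log2 fold change of 6.19, SE 0.61, adjusted p = 6.16e-05). Receptor and ligand were thus both above the vascular SMC-like level in every mouse.

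Slit3 and Sema5a were the genes that fell. Slit3 had 1.72, 4.27 and 18.6 CPM in alveolar myofibroblast-like cells, against 267.9, 304.7 and 620 CPM in vascular SMC-like cells (a log2 fold change of -6.05, SE 1.21, edgeR adjusted p = 0.0104). Sema5a had 16.95, 40.7 and 77.5 CPM in alveolar myofibroblast-like cells, against 371.5, 277.5 and 332.6 CPM in vascular SMC-like cells (-2.95, SE 0.54, adjusted p = 0.00563). The classes did not overlap in either gene. Nrp2 (3.71, SE 1.23, adjusted p = 0.135), Nrp1 (-1.07, SE 0.32, adjusted p = 0.0946), Sema3d (1.14, SE 1.2, adjusted p = 0.807) and Plxnd1 (-0.52, SE 0.48, adjusted p = 0.762) did not pass. Slit2 kept its call whichever mouse was left out. Without male mouse 1 the calls of Sema3a, Sema5a, Slit3 and Robo1 were lost (adjusted p 0.131 to 0.182), without male mouse 2 those of Sema3a, Sema3c and Robo1 (0.143 to 0.309), and without female mouse 1 those of Sema3a, Sema3c and Slit3 (0.19 to 0.242). The Robo1 call was also lost without the mouse block (0.112) and when the fit held no other class (0.0798), the Slit3 call without the block (0.0505) and the Sema3c call with all variable genes (0.0605).

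Between the airway SMC-like and alveolar myofibroblast-like classes themselves, none of the 10 passed edgeR's test, against 0.922% of all genes (0.464% higher and 0.458% lower), and 2 had an unadjusted p under 0.05 (Slit2 at -1.26 and Plxnd1 at -1.22 on the log2 scale), against 11.7% of all genes. The differences had wide errors: 0.23 (SE 1.10) for Sema3c and 0.80 (SE 1.29) for Sema3a.

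Alveolar fibroblast-like cells were higher in Slit2, Nrp2 and Robo1 and lower in Sema5a than vascular SMC-like cells. Against vascular SMC-like cells, 4 of the 10 genes passed the test (3 higher and 1 lower), against 5.92% of all genes (3.55% higher and 2.37% lower). The median log2 fold change of the 10 was 0.52, against -0.03 over all genes, and 5 of the 10 did not overlap between the classes, against 24.8% of all genes.

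Slit2 had 223.3, 282.4 and 321.5 CPM in alveolar fibroblast-like cells, against 0.501, 0.244 and 1.08 CPM in vascular SMC-like cells. In counts, the alveolar fibroblast-like class held 12776 Slit2 counts and the much larger vascular SMC-like class held 39. The log2 fold change was 9.03 (SE 0.68, edgeR adjusted p = 2.28e-06), the largest of the 10 genes in these 5 comparisons, and it passed with any mouse left out (adjusted p 0.000649 to 0.00215). Nrp2 had 172.2, 206.2 and 381.4 CPM in alveolar fibroblast-like cells, against 2.06, 2.11 and 1.49 CPM in vascular SMC-like cells (a log2 fold change of 6.85, SE 1.37, adjusted p = 0.0066). Robo1 had 31.9, 26.2 and 17.99 CPM in alveolar fibroblast-like cells, against 0, 0.0812 and 2.71 CPM in vascular SMC-like cells (6.70, SE 1.69, adjusted p = 0.0284). Ligand and receptor were above the vascular SMC-like level in every mouse.

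Sema5a had 55.8, 77.2 and 78.5 CPM in alveolar fibroblast-like cells, against 371.5, 277.5 and 332.6 CPM in vascular SMC-like cells (a log2 fold change of -2.23, SE 0.52, edgeR adjusted p = 0.0186). The other 6 genes did not pass: Nrp1 was 369.4, 428.4 and 583.4 CPM in alveolar fibroblast-like cells, against 433.3, 290 and 410 CPM in vascular SMC-like cells (0.30, SE 0.32, adjusted p = 0.882), and Slit3 was 138.7, 90.4 and 380 CPM in alveolar fibroblast-like cells, against 267.9, 304.7 and 620 CPM in vascular SMC-like cells (-1.20, SE 0.98, adjusted p = 0.771). Both genes overlapped. Without male mouse 1 the calls of Sema5a, Robo1 and Nrp2 were lost (adjusted p 0.123 to 0.246), without male mouse 2 those of Sema5a and Robo1 (0.068 to 0.267), and without female mouse 1 those of Sema5a and Nrp2 (0.142 to 0.149). The Robo1 call was also lost without the mouse block (0.164), when the fit held no other class (0.152) and with stricter cell filters (0.0511).

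Set directly against alveolar fibroblast-like cells, alveolar myofibroblast-like cells were lower in both Slits and in Nrp1. A total of 3 of the 10 genes passed, all lower, against 2.06% of all genes (0.847% higher and 1.21% lower), with a median log2 fold change of -0.53 over the 10 and -0.06 over all genes. In 7 of the 10 the classes did not overlap, against 17% of all genes. Slit2 had 20.1, 36.97 and 70.995 CPM in alveolar myofibroblast-like cells, against 223.3, 282.4 and 321.5 CPM in alveolar fibroblast-like cells (log2 fold change -2.84, SE 0.51, edgeR adjusted p = 0.00679). Slit3 had 1.72, 4.27 and 18.6 CPM in alveolar myofibroblast-like cells, against 138.7, 90.4 and 380 CPM in alveolar fibroblast-like cells (-4.85, SE 1.15, adjusted p = 0.0406). Nrp1 had 260, 121.8 and 137.4 CPM in alveolar myofibroblast-like cells, against 369.4, 428.4 and 583.4 CPM in alveolar fibroblast-like cells (-1.37, SE 0.33, adjusted p = 0.0428). In each gene the highest alveolar myofibroblast-like mouse was below the lowest alveolar fibroblast-like mouse.

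Sema3c was without overlap in the other direction and missed the threshold. It had 196.04, 691 and 224.5 CPM in alveolar myofibroblast-like cells, against 15.8, 3.91 and 11.7 CPM in alveolar fibroblast-like cells (log2 fold change 5.08, SE 1.31, edgeR adjusted p = 0.0655). Sema3a, at 28.7, 23.7 and 43.4 CPM in alveolar myofibroblast-like cells, against 2.94, 3.14 and 0.396 CPM in alveolar fibroblast-like cells, also missed it (4.33, SE 1.42, adjusted p = 0.168). No call of this comparison held with every mouse left out: Slit2 and Slit3 were lost without male mouse 1 (adjusted p 0.15 to 0.408), Slit2 and Nrp1 without male mouse 2 (0.0723 to 0.382), and all 3 without female mouse 1 (0.164 to 0.493). All 3 were also lost without the mouse block (0.0668 to 0.142), where Sema3c was called instead (0.037). Slit2 (0.0624) and Nrp1 (0.106) were lost with all variable genes, and Nrp1 at the finer clustering resolution of 2 (0.0522) and when the fit held no other class (0.17).

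Between pericyte-like and vascular SMC-like cells, the mural cells of vessels, no member gene was called. None of the 10 passed edgeR's quasi-likelihood test, against 2.84% of all genes (1.51% higher and 1.32% lower), and 4 had an unadjusted p under 0.05, against 14.5% of all genes. DESeq2 called 1, against 9.99% of all genes: Sema3d, at a log2 fold change of -4.58 (adjusted p = 0.00179); edgeR gave it the same size (SE 1.44) with an adjusted p of 0.123. Sema3d, a secreted semaphorin known from heart development, had 0.552, 0.829 and 4.35 CPM in pericyte-like cells, against 60.5, 72.999 and 9.33 CPM in vascular SMC-like cells. The classes did not overlap, and the gap was narrowest in female mouse 1. In all, 3 of the 10 did not overlap, against 18.9% of all genes.

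Slit3 was high in both mural classes, at 335.1, 68.4 and 513.5 CPM in pericyte-like cells, against 267.9, 304.7 and 620 CPM in vascular SMC-like cells (a log2 fold change of -0.54, SE 0.99, edgeR adjusted p = 0.889). Within the pericyte-like class the high level lay in cluster 8 and not in cluster 11, both described below. Sema5a, at 162.9, 131.3 and 237.1 CPM in pericyte-like cells, against 371.5, 277.5 and 332.6 CPM in vascular SMC-like cells, was lower in each mouse without passing (-0.93, SE 0.50, adjusted p = 0.437). Nrp1 had a log2 fold change of 0.02 (SE 0.32, adjusted p = 0.996). Robo1 had 0.827, 0.414 and 20.9 CPM in pericyte-like cells, with female mouse 1 far the highest (log2 fold change 3.13, SE 1.38, adjusted p = 0.31). Nrp2, at 11.03, 2.07 and 70.6 CPM, was likewise highest in female mouse 1.

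The pericyte-like class joined 2 clusters with different guidance genes. Cluster 8 (74 cells, of which 52 came from female mouse 1) led with Adora1 and Col8a1, and its score was 0.86 on the pericyte markers and 0.46 on the vascular SMC markers. Cluster 11 (45 cells, 31 of them from female mouse 1) led with Clstn2 and Adcy8 and scored 2.59 on the pericyte markers. Slit3 had 435.97, 149.4 and 714 CPM in cluster 8 and 4.13, 2.26 and 9.02 CPM in cluster 11. Sema5a had 211.96 and 289.5 CPM in cluster 8 of the males and 275.6 CPM in cluster 8 of all mice, and 1.77 and 2.26 CPM in cluster 11 of the males and 47.03 CPM in cluster 11 of all mice. In both genes every mouse was higher in cluster 8, although with 4 to 52 cells per mouse in cluster 8 and 6 to 31 in cluster 11 no test was made. Robo1 and Nrp2 were split by mouse: in female mouse 1 cluster 11 had 45.9 CPM of Robo1 and 136.5 CPM of Nrp2, whereas in the males it had no Robo1 count, and 31.3 and 0 CPM of Nrp2. The share of the clusters in the class differed between mice, and its part in the summed levels was not tested.

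Against the alveolar myofibroblast-like class the pericyte-like class differed in 6 of the 10 genes, against 4.0% of all genes (1.69% higher and 2.3% lower). Slit3 (log2 fold change 5.51) and Sema5a (2.03) were higher in pericyte-like cells, and Sema3a (-8.23), Sema3c (-7.25), Sema3d (-5.72) and Slit2 (-4.97) were lower, with edgeR adjusted p of 0.000195 to 0.0465. In airway SMC-like against pericyte-like cells 7 of the 10 passed, against 4.96% of all genes (2.55% higher and 2.4% lower). Higher were Sema3a (9.03), Sema3c (7.48), Sema3d (5.89) and Slit2 (3.70), and lower were Slit3 (-5.02), Plxnd1 (-2.11) and Nrp1 (-1.46). These Slit3 differences did not extend to pericyte-like cluster 11. Its Slit3 values lay within the range of the airway SMC-like mice and of the alveolar myofibroblast-like mice. In the males, Sema5a of cluster 11 was also below the alveolar myofibroblast-like level. In pericyte-like against alveolar fibroblast-like cells Slit2 alone passed (-7.80), against 4.73% of all genes (1.76% higher and 2.97% lower). Slit2 was also the 1 member called against adventitial fibroblast-like cells (-6.33), where 5.32% of all genes were called (2.12% higher and 3.2% lower). Pairs outside the 5 comparisons drawn in the plot of fold changes were tested in the main fit only. Their calls were not examined with a mouse left out or under the other alternatives.

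Airway SMC-like cells differed from alveolar fibroblast-like cells in 4 of the 10 genes, against 4.43% of all genes (1.78% higher and 2.65% lower): Sema3c was higher (5.31), and Slit2 (-4.10), Slit3 (-4.37) and Nrp1 (-1.75) were lower. Against adventitial fibroblast-like cells, 3 of the 10 passed in airway SMC-like cells, against 4.27% of all genes (1.71% higher and 2.57% lower): Sema3a was higher (6.16), and Slit2 (-2.62) and Nrp1 (-1.41) were lower. In alveolar myofibroblast-like against adventitial fibroblast-like cells edgeR called none of the 10, against 2.18% of all genes (0.885% higher and 1.29% lower), and 6 had an unadjusted p under 0.05, against 13.1% of all genes.

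Of the 10 genes none passed edgeR's test in alveolar fibroblast-like against adventitial fibroblast-like cells, where 0.151% of all genes did (0.0753% higher and 0.0753% lower), and 2 had an unadjusted p under 0.05, against 6.43% of all genes. Slit2 had 223.3, 282.4 and 321.5 CPM in alveolar fibroblast-like cells, against 134.96, 43.98 and 120 CPM in adventitial fibroblast-like cells (log2 fold change 1.48, SE 0.49, adjusted p = 0.461), without overlap. Against vascular SMC-like cells, adventitial fibroblast-like cells were called in 3 of the 10 genes, against 5.68% of all genes (3.5% higher and 2.18% lower): Slit2 (7.55, SE 0.64, adjusted p = 4.42e-06) and Robo1 (6.46, SE 1.66, adjusted p = 0.0326) were higher and Sema5a (-1.92, SE 0.52, adjusted p = 0.0436) was lower. Male mouse 2 stood apart in this class, with 16 cells: Slit3 was 0.590 CPM there, while male mouse 1 had 72.5 CPM and female mouse 1 had 349.2 CPM, and Nrp2 was 0.295 CPM there, while the others had 87.5 and 86.8 CPM. Sema3c ran from 0.437 CPM in male mouse 1 to 81.7 CPM in female mouse 1.

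Ordered by mean level, neighbouring classes were rarely told apart. For Slit2 the order was alveolar fibroblast-like (275.7 ± 49.4 CPM), adventitial fibroblast-like (99.8 ± 48.9), alveolar myofibroblast-like (42.7 ± 25.9), airway SMC-like (19.2 ± 13.1), pericyte-like (1.40 ± 0.869) and vascular SMC-like (0.609 ± 0.430; SD, n = 3 mice each). Of these steps, that between the airway SMC-like and pericyte-like classes passed edgeR's test (log2 fold change 3.70, adjusted p = 0.00131), and 11 of all 15 pairs of classes passed for Slit2. For the other genes no neighbouring pair passed, and 1 (Plxnd1) to 6 (Slit3) of the 15 pairs did.

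For Slit3 the order was vascular SMC-like (397.6 ± 193.6 CPM), pericyte-like (305.7 ± 224.05), alveolar fibroblast-like (203.1 ± 155.2), adventitial fibroblast-like (140.78 ± 184.1), airway SMC-like (9.70 ± 7.69) and alveolar myofibroblast-like (8.21 ± 9.12). The spread over mice was large, with female mouse 1 the highest in every class. Plxnd1, the plexin that receives Sema3e and, with neuropilins, Sema3c, averaged 162.01 ± 90.5 CPM in pericyte-like cells, 140 ± 131.6 in vascular SMC-like, 110.98 ± 72.3 in alveolar fibroblast-like, 87.9 ± 61.7 in alveolar myofibroblast-like, 72.2 ± 21.6 in adventitial fibroblast-like and 34.04 ± 6.82 in airway SMC-like cells. Sema3d averaged 120 ± 65.4 CPM in airway SMC-like, 101.7 ± 68.6 in alveolar myofibroblast-like, 47.6 ± 33.7 in vascular SMC-like, 30.6 ± 10.6 in alveolar fibroblast-like, 11.98 ± 11.4 in adventitial fibroblast-like and 1.91 ± 2.12 in pericyte-like cells.

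Per length of the longest coding transcript, levels could be compared between genes. In airway SMC-like cells Sema3c was the highest ligand, at 80.04 ± 4.08 CPM per kb, ahead of Sema3d at 19.05 ± 10.4 and Sema3a at 11.4 ± 12.9 (SD, n = 3). In vascular SMC-like cells Slit3 led at 76.05 ± 37.03 CPM per kb, followed by Sema5a at 30.3 ± 4.37, while Slit2 was 0.0611 ± 0.0431. Alveolar fibroblast-like cells held both Slits, Slit3 at 38.8 ± 29.7 and Slit2 at 27.7 ± 4.96 CPM per kb. The order of these means depends on the length used, 5228 bases for Slit3 and 9960 for Slit2. In plain CPM Slit2 had the higher mean, at 275.7 against 203.1 for Slit3. Per kb of all annotated exons Slit3 was 33.47 and Slit2 10.84. Among receptors Nrp1 had the highest mean in all 6 classes, from 38.9 ± 1.29 CPM per kb in airway SMC-like cells to 127.99 ± 30.7 in alveolar fibroblast-like cells. In airway SMC-like cells the size of this lead depends on the length used, 3597 bases for Nrp1 and 6723 for Nrp2: per kb of all annotated exons Nrp1 was 14.3 ± 0.473 and Nrp2 12.65 ± 5.65, and in plain CPM Nrp2 was above Nrp1 in 2 of the 3 mice. Nrp2 was 22.3 ± 9.95 CPM per kb in airway SMC-like cells and 0.280 ± 0.0514 in vascular SMC-like cells.

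**Figure D3:**
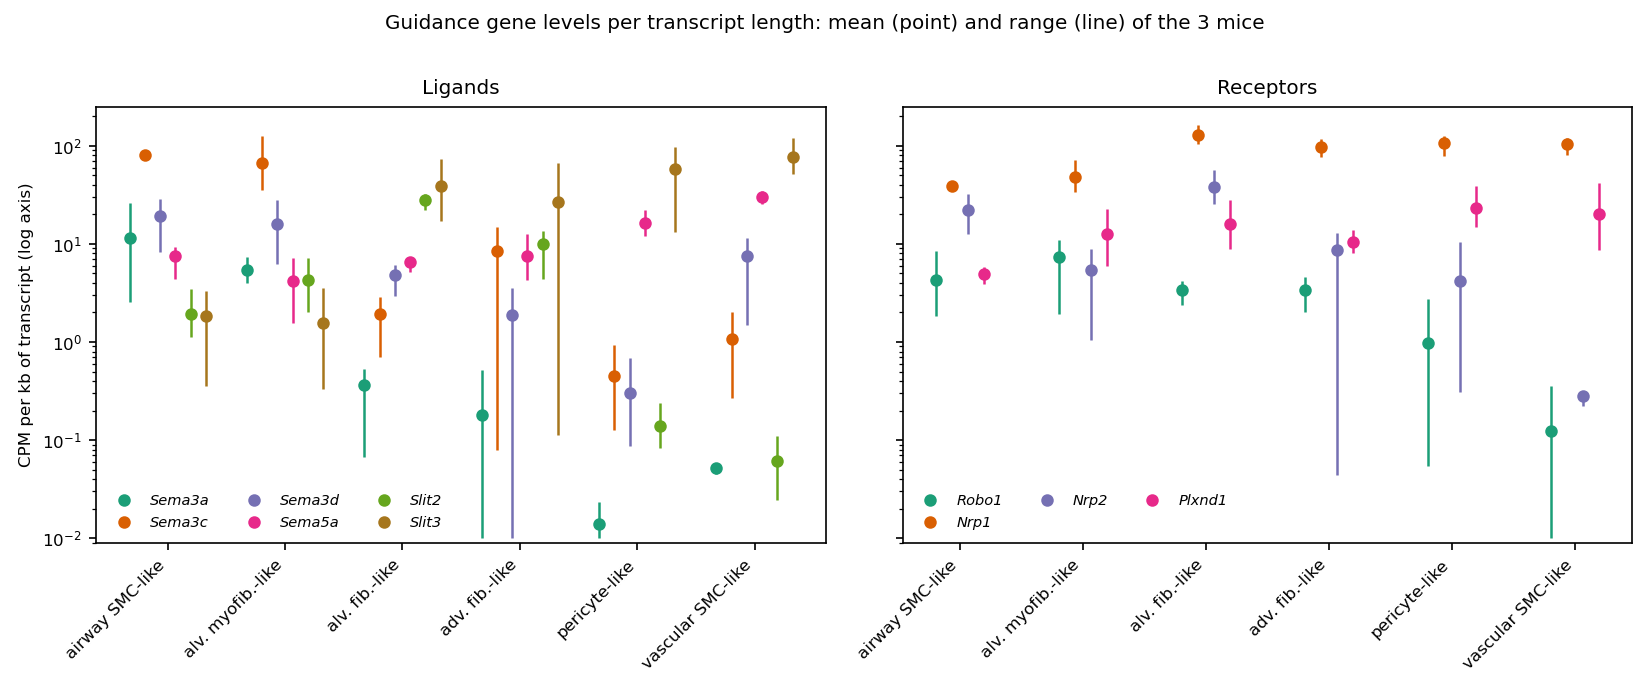
Levels per transcript length, in CPM per kb on a log axis, of the 6 ligand genes (left) and 4 receptor genes (right) in the 6 classes; points are means of the 3 mice, lines run from the lowest to the highest mouse, and a line that ends at 0.01 reaches a mouse with no count or a lower level. Sema3c leads the ligands in the airway SMC-like class, Slit3 in the vascular SMC-like class, and Nrp1 has the highest receptor mean in every class.

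The class levels were carried by different shares of cells. With every cell thinned to 50000 counts, Sema3c had a count in 76.9% ± 6.93 of airway SMC-like cells and 71.9% ± 7.78 of alveolar myofibroblast-like cells, against 9.68% ± 2.84 of vascular SMC-like cells (SD, n = 3; unthinned 85.2%, 76.7% and 24.1%). Sema3a had a count in 24.1% ± 12.4 of airway SMC-like cells and 17.04% ± 6.67 of alveolar myofibroblast-like cells, so most cells of both classes showed none at this depth. Slit2 was seen in 81.1% ± 5.55 of alveolar fibroblast-like cells, 48.6% ± 9.64 of adventitial fibroblast-like cells and 3.43% ± 2.08 of vascular SMC-like cells. It was seen in 24.2% ± 3.75 of alveolar myofibroblast-like cells and 15.9% ± 11.4 of airway SMC-like cells. In the airway SMC-like class these were 2 of 42, 2 of 13 and 8 of 29 cells, so few cells carried its Slit2 level. Macrophage-like cells, of which 56 of 61 came from male mouse 1, were taken as a reference on the assumption that they lack these ligands. Their thinned shares were 8.20% for Sema3c, 1.64% for Sema3a, 6.56% for Slit2, 13.1% for Slit3 and 14.8% for Sema5a. The vascular SMC-like share of Slit2 was below this reference and that of Sema3c close to it. The airway SMC-like share of Slit3 (12.2% ± 10.4) was close to it as well. In summed CPM, however, Sema3c of male mouse 1 was higher in vascular SMC-like than in macrophage-like cells. The median macrophage-like cell held 242130 counts and the median vascular SMC-like cell 220592.

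Nrp1 had a count in 88.7% ± 5.57 of alveolar fibroblast-like and 82.9% ± 6.98 of adventitial fibroblast-like cells, against 42.1% ± 6.82 of airway SMC-like cells. Nrp2 had one in 70.1% ± 8.03 of alveolar fibroblast-like cells and 29.1% ± 7.83 of airway SMC-like cells. Robo1 was seen in few cells of any class, in 21.9% ± 6.21 of alveolar fibroblast-like cells and in 1.67% ± 1.97 of vascular SMC-like cells. Plxnd1 ranged from 48.98% ± 13.7 of alveolar fibroblast-like cells to 25.2% ± 12.8 of alveolar myofibroblast-like cells.

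The share of cells with a count of both genes of a pair was set beside the product of their shares. Of the alveolar fibroblast-like cells, 61.1% had both Nrp1 and Nrp2 (60.6% by the product) and 19.4% had both Slit2 and Robo1 (18.8%). Sema3c and Nrp1 met in 33.3% of airway SMC-like cells (34.6% by the product) and in 31 alveolar myofibroblast-like cells, or 30.1% (29% by the product). Sema3c and Nrp2 met in 20.2% of airway SMC-like cells (23.4%) and in 3.49% of adventitial fibroblast-like cells (6.25%), and Slit2 and Robo1 in none of the 84 airway SMC-like cells (1.53%). The ligands Slit2 and Slit3 met in 48.6% of alveolar fibroblast-like cells (45%) and 27.9% of adventitial fibroblast-like cells (21.4%). They met in 1.19% of airway SMC-like cells (1.70%) and 4.2% of pericyte-like cells (4.64%), which were 1 and 5 cells. The products pool mice whose shares differed, with Slit3 seen in 11 of 28, 1 of 16 and 24 of 42 adventitial fibroblast-like cells. All these shares are from thinned counts of cells that share a mouse and a plate, and they were not tested.

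Cells outside the compared classes held some of the highest receptor levels. In the 65 endothelial-like cells of female mouse 1, Nrp1 was 837 CPM, Sema3c 764 CPM, Plxnd1 234.01 CPM and Nrp2 44.4 CPM, and Sema3c had a count in 90.9% of all endothelial-like cells after thinning. The 56 macrophage-like cells of male mouse 1 held 433.5 CPM of Nrp1 and 188.9 CPM of Nrp2, and at most 1.66 CPM of any of the 6 ligand genes. Robo1 was 0.164 CPM in the pooled endothelial-like cells and 0.133 CPM in the pooled macrophage-like cells. Unnamed cluster 1 (93, 39 and 36 cells), whose leading genes by fold included the mesothelial markers Upk3b, Msln and Lrrn4 although 0 of the 4 mesothelial markers had a count in 25% of its cells, had 694, 626.3 and 713 CPM of Nrp1 and 339.02, 427.2 and 422.6 CPM of Sema5a. Unnamed cluster 2 (57, 71 and 19 cells), in which 6 vascular SMC markers were detected, had 142.6, 52.96 and 382.7 CPM of Slit3 and 234.3, 305.8 and 325.5 CPM of Sema5a, with Nrp1 at 144.9, 58.4 and 63.1 CPM. It scored best as vascular SMC (0.25, against 0.07 for the next class) and missed the name by the score margin alone. The vascular SMC-like class leaves these cells out, and its higher Nrp1 level does not extend to them. With all variable genes, a cluster that shared the leading genes Efhd1, Efhd1os and Sfrp2 was named vascular SMC.

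**Figure D4:**
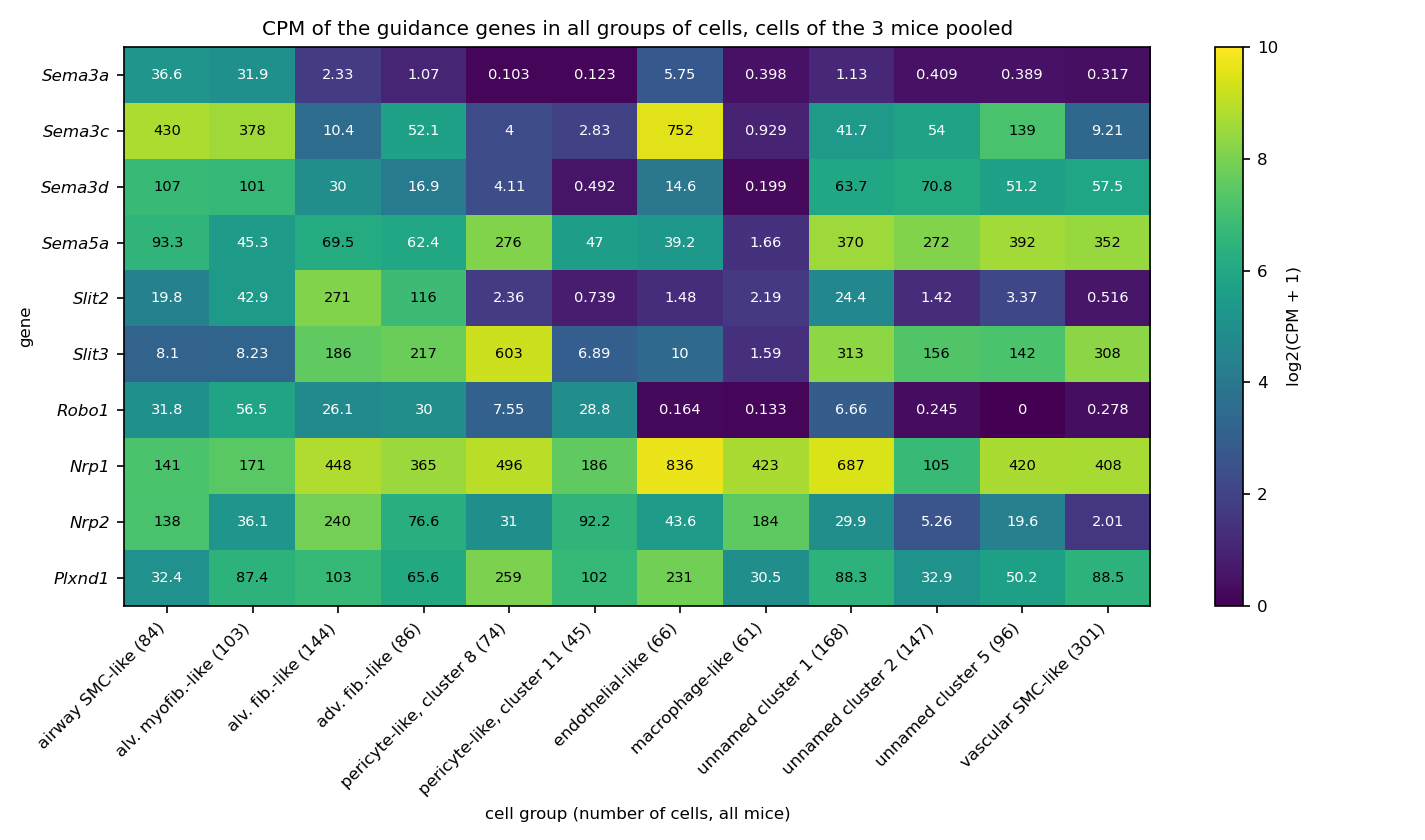
CPM of the 10 genes (rows) in 12 groups of cells (columns, with their number of cells), the cells of all mice pooled, coloured by log2(CPM + 1). The highest single values are Nrp1 at 836 CPM and Sema3c at 752 CPM in endothelial-like cells, and the ligand rows are near 0 in macrophage-like cells.

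Among the other semaphorins, 12 of 16 listed genes could be tested, and 0 to 1 passed in each of the 5 comparisons. Here and for the other lists, these are the 5 comparisons drawn in the plot of fold changes, in which 1.84% to 5.92% of all genes passed. Sema4d, a membrane semaphorin, had 0.246, 25.3 and 51.7 CPM in alveolar myofibroblast-like cells, against 0.0895, 0 and 0.135 CPM in vascular SMC-like cells (a log2 fold change of 9.19, SE 2.24, edgeR adjusted p = 0.0338), with male mouse 1 apart from the others. Sema3e, the ligand that binds Plxnd1 directly, had 25.3, 70.01 and 47.4 CPM in alveolar myofibroblast-like cells, against 0.113, 0.118 and 0.555 CPM in alveolar fibroblast-like cells (7.22, SE 1.54, adjusted p = 0.0223). No mouse overlapped in Sema3e. Of the 7 other plexins tested, Plxnb1 passed in alveolar fibroblast-like against vascular SMC-like cells, at 0.679, 0.0592 and 1.82 CPM against 55.8, 45.6 and 104.6 CPM (-6.90, SE 1.67, adjusted p = 0.0227), and none passed in the other 4 comparisons.

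Robo2, the neighbour of Robo1 on chromosome 16 and also a Slit receptor gene, was called in 3 comparisons with vascular SMC-like cells. It had 162.17, 159.37 and 141.63 CPM in alveolar fibroblast-like cells, against 0.179, 0.0812 and 0.135 CPM in vascular SMC-like cells (a log2 fold change of 9.89, SE 1.54, edgeR adjusted p = 0.001). In alveolar myofibroblast-like cells it was 34.8, 156.88 and 33.1 CPM (8.74, SE 1.49, adjusted p = 0.00325 against vascular SMC-like cells), and in airway SMC-like cells 3.65, 0 and 36.1 CPM (6.10, SE 1.38, adjusted p = 0.035), with no count in male mouse 2. Srgap1, an effector of Robo receptors, was 24.9, 26.97 and 33.96 CPM in alveolar myofibroblast-like cells, against at most 0.271 CPM in vascular SMC-like cells (7.60, SE 1.68, adjusted p = 0.0197). Of 7 Slit and Robo pathway genes tested beside the members, 1 passed in the airway SMC-like comparison, 2 in the alveolar myofibroblast-like and 2 in the alveolar fibroblast-like comparison with vascular SMC-like cells, against 1.84%, 3.66% and 5.92% of all genes, and 0 in the other 2 of the 5 comparisons.

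Of 15 plexin effectors tested, 0 to 3 passed in each of the 5 comparisons, and Dpysl3, a collapsin response mediator of the family that acts downstream of Sema3a, was called in 3 of them. It had 31.03, 2.49 and 44.1 CPM in pericyte-like cells (log2 fold change -4.43, SE 0.87, edgeR adjusted p = 0.0112) and 16.2, 45.9 and 5.90 CPM in alveolar myofibroblast-like cells (-4.58, SE 0.88, adjusted p = 0.00827), against 668, 430 and 596.16 CPM in vascular SMC-like cells. In alveolar fibroblast-like cells Mical1 (-1.64, SE 0.37, adjusted p = 0.0153) and Mical2 (-4.51, SE 1.19, adjusted p = 0.0358), actin-oxidising enzymes, were lower than in vascular SMC-like cells. The kinase gene Fes was higher in pericyte-like than in vascular SMC-like cells (8.06, SE 1.88, adjusted p = 0.0316).

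Of the 8 VEGF family genes tested, which share the neuropilins, 1 passed in pericyte-like and 1 in alveolar fibroblast-like against vascular SMC-like cells (2.84% and 5.92% of all genes), 2 in alveolar myofibroblast-like against alveolar fibroblast-like cells (2.06%) and 0 in the other 2 of the 5 comparisons. The pericyte-like call was Vegfd (log2 fold change -4.16, SE 0.98, edgeR adjusted p = 0.0326), named after its value was seen. Pgf, placental growth factor, had 1.19, 6.51 and 6.58 CPM in alveolar fibroblast-like cells, against 162.8, 144.9 and 252.8 CPM in vascular SMC-like cells (a log2 fold change of -5.24, SE 0.72, edgeR adjusted p = 0.000388). In alveolar myofibroblast-like against alveolar fibroblast-like cells Pgf was higher, at 173.3, 31.4 and 161.1 CPM against 1.19, 6.51 and 6.58 CPM (4.65, SE 0.72, adjusted p = 0.00217) and Vegfd was lower, at 0.368, 8.77 and 2.12 CPM against 371.7, 251.3 and 211.5 CPM (-6.30, SE 1.07, adjusted p = 0.00469). Other guidance families listed were netrin and repulsive guidance molecule genes, and ephrins and Eph receptors. Of these, the repulsive guidance molecule gene Rgmb (2.93, SE 0.58, edgeR adjusted p = 0.0171) was higher in airway SMC-like than in vascular SMC-like cells. The Eph receptor gene Epha1 (-3.33, SE 0.76, adjusted p = 0.0366) was lower. In pericyte-like cells, set against the vascular SMC-like class, the netrin receptor genes Unc5c (-5.71, SE 0.98, adjusted p = 0.00538) and Neo1 (-3.38, SE 0.73, adjusted p = 0.0199) were lower and Epha2 (7.02, SE 1.53, adjusted p = 0.0211) was higher. In each of the 5 comparisons 0 to 2 of the 9 netrin and repulsive guidance molecule genes tested and 0 to 1 of the 16 ephrin and Eph receptor genes tested passed.

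Over the 18 sums the levels of some members ran together. As a description over sums that share mice and cells' depth, Pearson's r of log2(CPM + 1) was 0.795 for Slit2 and Robo1, 0.771 for Sema3a and Sema3c, -0.852 for Sema3a and Nrp1 and -0.727 for Sema3c and Slit3. Outside the guidance lists, among 10306 genes, the most alike were Megf10 for Sema3a (0.936), Nipsnap1 and Agt for Sema3c (0.932 and 0.925), Igfbp6 for Slit2 (0.945), Col18a1 for Slit3 (0.927), Itgb5 for Nrp1 (0.954), Bcam for Sema5a (0.889) and Ror2 for Nrp2 (0.857). Sema3a and Sema3d are neighbouring protein-coding genes on chromosome 5, 536.5 kb apart, and r between them was 0.683. Slit2, Slit3, Sema3a, Sema3d, Nrp1 and Nrp2 overlap small annotated genes, and no source used here says whether reads were counted by strand, so reads of those genes cannot be told apart from theirs.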

How the data were processed

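Each sample is 1 cell read by Smart-Seq2 without molecular identifiers. The authors deposited 1 table of raw read counts, whole numbers with a gene in each row and a cell in each column, per the file headers. Per the submitters' processing notes, the tools include featureCounts of Subread, Bowtie and Bowtie2, and bcl2fastq, and the build is mm10 (GRCm38); roles and settings are not given. Gene identifiers were matched to symbols with GENCODE M21 (46005 of 46517 matched, and the others held 0.184% of the counts). All columns were used, and no cell's counts were identical to another's. The 10 members and the other gene lists were chosen with earlier results of these data known.

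Genes were split at random into 2 parts (seed 1), with all guidance genes in the first. Cells were clustered (counts scaled to 10000 per cell, 1000 most variable genes, 30 principal components, 15 neighbours, Leiden resolution 1, igraph 0.11.9 and leidenalg 0.10.2) on the second part, and genes of the first part were tested between these clusters, and the other way round. A cluster was named where at least 3 markers were detected in 25% of its cells, its mean scaled score exceeded the next class by 0.25, and its 10 leading genes of at least 16 CPM held no more markers of another class than of its own; these limits were set after the clusters were seen. The classes are rebuilt names and not the authors'. No doublet caller was run.

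Counts were summed per class and mouse, the mouse being the replicate, so n is 3. The authors' counts were tested with edgeR 4.0.16 (filterByExpr by class, two-sided glmQLFTest after glmQLFit with the mouse as a block). TMM factors were 0.94 to 1.10 in the fit of the first part, with the guidance genes, and 0.929 to 1.13 in that of the second. P-values were adjusted by Benjamini and Hochberg's method over the 15935 genes of both parts. The standard error is the log2 fold change over the square root of F. CPM are plain shares of a sum, and CPM per kb divides them by the longest coding transcript. The correlations between genes and between sums instead use CPM scaled by the TMM factors. The mouse numbers pair the sums because classes of a mouse come from the same animal. Over 10371 genes, deviations from class means correlated at 0.053 to 0.335 within a mouse and at -0.247 to 0.108 between mice (median -0.117). Centring each class on its own 3 mice itself lowers the correlations between mice, so their negative median is no evidence of pairing. Genes were named by a rule: each member in full, of the other lists up to the 5 called genes with the smallest adjusted p in a comparison, and the most correlated genes of at least 10 mean CPM. Adventitial fibroblast-like and other pairs come from the same fit, and the alternatives were not run for them. Alternatives were DESeq2 1.42.0, no filter, thinned cells (50000 counts), other clusterings, stricter cell filters (2000 genes and 100000 counts), pairwise fits, no mouse block and each mouse left out. P-values reflect the spread over 3 mice and do not separate sex from mouse or plate. In Smart-Seq2 sums, fewer cells expressing a gene and less RNA per cell cannot be told apart.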

Additional observations from a re-analysis of the deposited data

Results flagged for a closer look

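In 3 cases the male mice moved in the opposite direction to the female mouse under the same comparison. The differences below are in log2(CPM + 1) within each mouse, and the difference between the sexes was not tested, since there is 1 female mouse on a plate of its own. Sema3c, pericyte-like minus vascular SMC-like, was -2.84 in male mouse 1, -1.24 in male mouse 2 and 1.30 in female mouse 1, from 0.689, 1.66 and 5.13 CPM in pericyte-like cells against 11.1, 5.28 and 1.49 CPM in vascular SMC-like cells. Sema3d, alveolar fibroblast-like minus vascular SMC-like, was -1.65, -0.92 and 1.81 in the same order of mice, from 18.6, 38.1 and 35.2 CPM in alveolar fibroblast-like cells against 60.5, 72.999 and 9.33 CPM in vascular SMC-like cells. The vascular SMC-like level of Sema3d was lowest in female mouse 1, where the class held 26 cells. Plxnd1, pericyte-like minus vascular SMC-like, was 0.79, 0.77 and -0.13, and on the 2 plates of male mouse 1 it was -1.67 and 1.31, so its sign also differed within 1 mouse.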

How the results depend on the processing

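Of the 19 calls in the 5 comparisons, all kept their direction in each of the 11 alternatives, and 19 stayed called with DESeq2, 19 without the count filter, 19 with thinned cells, 18 at Leiden resolution 2, 18 with stricter cell filters, 14 with all variable genes outside the guidance lists, 14 with only the compared classes in the fit, 11 without the replicate block, 6, 9 and 6 with male mouse 1, male mouse 2 or female mouse 1 left out. Slit2 stayed called with every mouse left out in its 3 comparisons with vascular SMC-like cells, but not in airway SMC-like cells with only the compared classes in the fit (adjusted p = 0.197). Members called with a mouse left out ranged from 1 to 3 (airway SMC-like; 0.477% to 0.876% of all genes), 2 to 4 (alveolar myofibroblast-like; 1.08% to 1.61%), 1 to 2 (alveolar fibroblast-like; 1.91% to 2.94%), 0 to 2 (alveolar myofibroblast-like against alveolar fibroblast-like; 0.539% to 0.864%) and 1 to 4 (any difference; 3.79% to 5.41%). In the pericyte-like comparison DESeq2 called 1 member and 9.99% of all genes (edgeR 0 members), and it called 6 and 7.34% in alveolar myofibroblast-like against alveolar fibroblast-like cells (edgeR 3), where the fit without the replicate block called 1 and 1.52%. Without the block the other counts were 4 for airway SMC-like (1.21% of all genes), 0 for pericyte-like (1.73%), 4 for alveolar myofibroblast-like (2.71%) and 3 for alveolar fibroblast-like cells (4.65%), each against vascular SMC-like cells, and 8 for any difference (10.8%); the mouse block is the pairing here. The cause of these changes was not tested.

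Some fold changes that had passed no test changed sign (log2). In the pericyte-like comparison with vascular SMC-like cells, values with a mouse left out ranged from -3.09 to 0.08 for Sema3c (highest without male mouse 1), from -1.36 to 0.12 for Slit3 (highest without male mouse 2) and from -0.23 to 0.29 for Nrp1 (-0.06 without female mouse 1), and Nrp1 was -0.01 at Leiden resolution 2 and -0.09 without the filter. With all variable genes, Plxnd1 was 0.20 in alveolar myofibroblast-like and 0.67 in alveolar fibroblast-like cells, and Sema3c -0.80 in alveolar fibroblast-like cells, each against vascular SMC-like cells. Plxnd1 in alveolar fibroblast-like cells was also 0.02 with thinned cells, and -0.42 to 0.16 with a mouse left out. Robo1 in alveolar myofibroblast-like against alveolar fibroblast-like cells was -0.14 to 1.56 with a mouse left out. The pericyte-like class gave no value with all variable genes or with stricter cell filters, since it was not among the classes with 10 cells in every mouse there. Genes under about 1 CPM rest on few counts and 3 mice set the precision.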
